A study of Mus musculus with 17 samples.

Results

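The 10 genes of the circadian clock were followed through 17 mouse livers, chosen by symbol from the 52545 genes of the deposited table: Arntl (also called Bmal1), Clock, Npas2, Per1, Per2, Per3, Cry1, Nr1d1, Dbp and Bhlhe41. All 10 were found under their symbols, and all 10 were among the 18624 genes with enough signal to be tested. The tissue was non-tumorous liver from C57BL/6J males that were 32 weeks old, and each mouse gave 1 RNA library. The 6 CLDN1 mAb mice had been given the liver carcinogen diethylnitrosamine (DEN, 100 mg/kg, once in week 1), CDA-HFD (a high-fat diet that lacks choline and holds amino acids in place of protein), and 500 µg of a monoclonal antibody against the tight junction protein claudin-1 by intraperitoneal injection, 1 per week for 16 weeks. The 6 Vehicle Control mice had been given the same DEN dose and diet and the same schedule of injections of PBS without antibody. The 5 Regular diet mice had received neither DEN, CDA-HFD nor injections. The 12 mice of the first 2 groups are called model mice here. Since carcinogen, diet and injections came together, a difference from Regular diet cannot be assigned to any of them.

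The clock of a liver cell is a loop of transcription factors. ARNTL pairs with CLOCK or its relative NPAS2 and switches on the Per and Cry genes, Nr1d1, Dbp and Bhlhe41 through a DNA element called the E-box, and the PER and CRY proteins then switch the pair off. NR1D1 (REV-ERBα) represses Arntl and Npas2 through a second element, the RRE, while DBP acts on yet another, the D-box, so that in mouse liver Arntl and Npas2 transcripts peak at about the opposite time of day from Dbp, Per3 and Nr1d1. The hour of liver collection and the lighting schedule are not given in the sources used here, and each mouse was sampled once. A difference in the level of a clock transcript and a difference in the phase of its daily rhythm therefore cannot be told apart in any comparison below.

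Promoters of 4 members are shown because they hold the 3 kinds of element that tie the loop together. The sequences are RefSeq's, on mouse build GRCm38.p6, each from 250 bases before to 50 after an annotated start site, 5′ to 3′ on the gene's strand. Capitals mark the RRE (TAGGTCA) and a variant of it (TAGGTTA) in Arntl, the D-box (TTATGTAA) in Per3, the E-box (CACGTG) in Cry1 and Bhlhe41, and the E′-box (CACGTT, here on the other strand) in Cry1.
Arntl promoter, chr7:113207261-113207560 (+ strand): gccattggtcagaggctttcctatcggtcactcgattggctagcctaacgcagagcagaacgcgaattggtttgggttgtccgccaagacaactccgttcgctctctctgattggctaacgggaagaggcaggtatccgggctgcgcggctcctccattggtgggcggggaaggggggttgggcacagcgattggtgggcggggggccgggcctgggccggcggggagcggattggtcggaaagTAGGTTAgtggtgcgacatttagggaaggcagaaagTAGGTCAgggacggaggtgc
Per3 promoter, chr4:151044616-151044915 (- strand): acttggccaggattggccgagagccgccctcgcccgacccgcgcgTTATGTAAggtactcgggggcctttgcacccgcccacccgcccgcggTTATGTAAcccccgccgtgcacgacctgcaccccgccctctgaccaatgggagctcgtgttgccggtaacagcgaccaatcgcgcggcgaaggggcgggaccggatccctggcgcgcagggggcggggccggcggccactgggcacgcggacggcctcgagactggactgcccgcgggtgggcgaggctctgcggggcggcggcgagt
Cry1 promoter, chr10:85185005-85185304 (- strand): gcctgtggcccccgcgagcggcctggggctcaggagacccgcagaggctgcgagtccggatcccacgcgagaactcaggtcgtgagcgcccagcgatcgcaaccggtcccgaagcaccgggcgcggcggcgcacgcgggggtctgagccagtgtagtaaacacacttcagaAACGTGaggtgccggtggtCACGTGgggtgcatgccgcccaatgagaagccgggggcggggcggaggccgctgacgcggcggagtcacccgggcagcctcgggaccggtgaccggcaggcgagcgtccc
Bhlhe41 promoter, chr6:145865371-145865670 (- strand): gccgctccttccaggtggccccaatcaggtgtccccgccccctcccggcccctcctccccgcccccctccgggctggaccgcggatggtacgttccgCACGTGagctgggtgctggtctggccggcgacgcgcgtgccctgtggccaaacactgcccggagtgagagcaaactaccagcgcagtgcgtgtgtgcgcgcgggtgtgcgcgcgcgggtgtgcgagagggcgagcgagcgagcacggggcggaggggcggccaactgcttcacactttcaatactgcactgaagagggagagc

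Counting the start site as +1 and the base before it as -1, the Arntl window held the RRE at +31 and its variant at -6. The Per3 window held the D-box at -205 and again at -158. Cry1 carried the E′-box at -79 and the E-box at -60, and Bhlhe41 the E-box at -153. RefSeq windows were matched for 9 of the 10 members (13 windows), and Per2 had no entry. Searched on both strands, the E-box was found in windows of 3 members (Per1, at -166, as well as Cry1 and Bhlhe41), the E′-box in 2 (Cry1, and Nr1d1 at -28), the D-box in Per3 and the RRE and its variant in Arntl. Among all 32851 promoter windows of that length, 7.15% held the E-box, 4.68% the E′-box, 0.938% the D-box, 2.61% the RRE and 1.44% its variant. These are matches of letters and were not tested as binding sites.

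Values are counts normalized by the authors with cuffnorm, called normalized counts here. Fold changes are differences of log2(value + 1), with their standard error (SE), from a limma fit over all 18624 genes tested, and a gene is said to have risen or fallen where its Benjamini-Hochberg adjusted p was under 0.05. Estimated depth was 27.7 to 59.5 M fragments per library (M, mega). Deposited totals were 48.2 to 74.6 M in Regular diet, 29.7 to 42.1 M in Vehicle Control and 35.4 to 42.8 M in CLDN1 mAb libraries. Every Regular diet total was above every total of the model groups, so total and difference from Regular diet cannot be told apart. The highest total was that of Regular diet replicate 1, a library that was the lowest of its group in 8 of the 10 members. Vehicle Control replicate 3 stood apart from its group in several members. Several results below are therefore given with and without these libraries. Each limma p sets a difference against the spread between mice of the same group, estimated over all libraries of the fit.

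Both groups of model livers had lower Arntl, Clock, Npas2 and Cry1 and higher Per2, Per3, Dbp and Bhlhe41 than Regular diet livers. In Vehicle Control against Regular diet, 9 of the 10 members changed, 5 higher (Per1, Per2, Per3, Dbp, Bhlhe41) and 4 lower (Arntl, Clock, Npas2, Cry1). Across all genes tested, 50.5% changed in this comparison, 29.8% higher and 20.7% lower. In CLDN1 mAb against Regular diet, 8 members changed, 4 higher (Per2, Per3, Dbp, Bhlhe41) and 4 lower (Arntl, Clock, Npas2, Cry1), where 38.9% of all genes changed, 24.8% higher and 14.1% lower. Nr1d1 passed in neither comparison. The comparisons share the Regular diet libraries, so their values are set side by side and are not independent of each other. The ranges of CLDN1 mAb and Regular diet livers did not overlap for 7 members, against 29% of all genes, and those of Vehicle Control and Regular diet livers did not overlap for 3 members, against 29.6% of all genes. The median log2 fold change over the 10 members was 0.75 in CLDN1 mAb and 0.46 in Vehicle Control livers against Regular diet, where the medians of all genes were 0.01 and 0.04. Since members went both ways, both member medians only mark a point between Nr1d1 and Per2 and show no shift of the set.

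The split of all genes into higher and lower depended on how the libraries were scaled. With every library scaled to the same total, the median of all genes was 0.44 in CLDN1 mAb and 0.65 in Vehicle Control livers against Regular diet, and with quantile normalization it was -0.12 and -0.13. As deposited, 4613 genes were higher and 2634 lower in CLDN1 mAb, and 5547 higher and 3853 lower in Vehicle Control. The same total gave 7063 higher and 831 lower in CLDN1 mAb, and 9369 higher and 1264 lower in Vehicle Control. Quantile normalization gave 3553 higher and 3725 lower in CLDN1 mAb, and 4447 higher and 5223 lower in Vehicle Control. None of the members called in either comparison changed direction under these scalings, while the calls that ended are given with each gene.

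**Figure D1:**
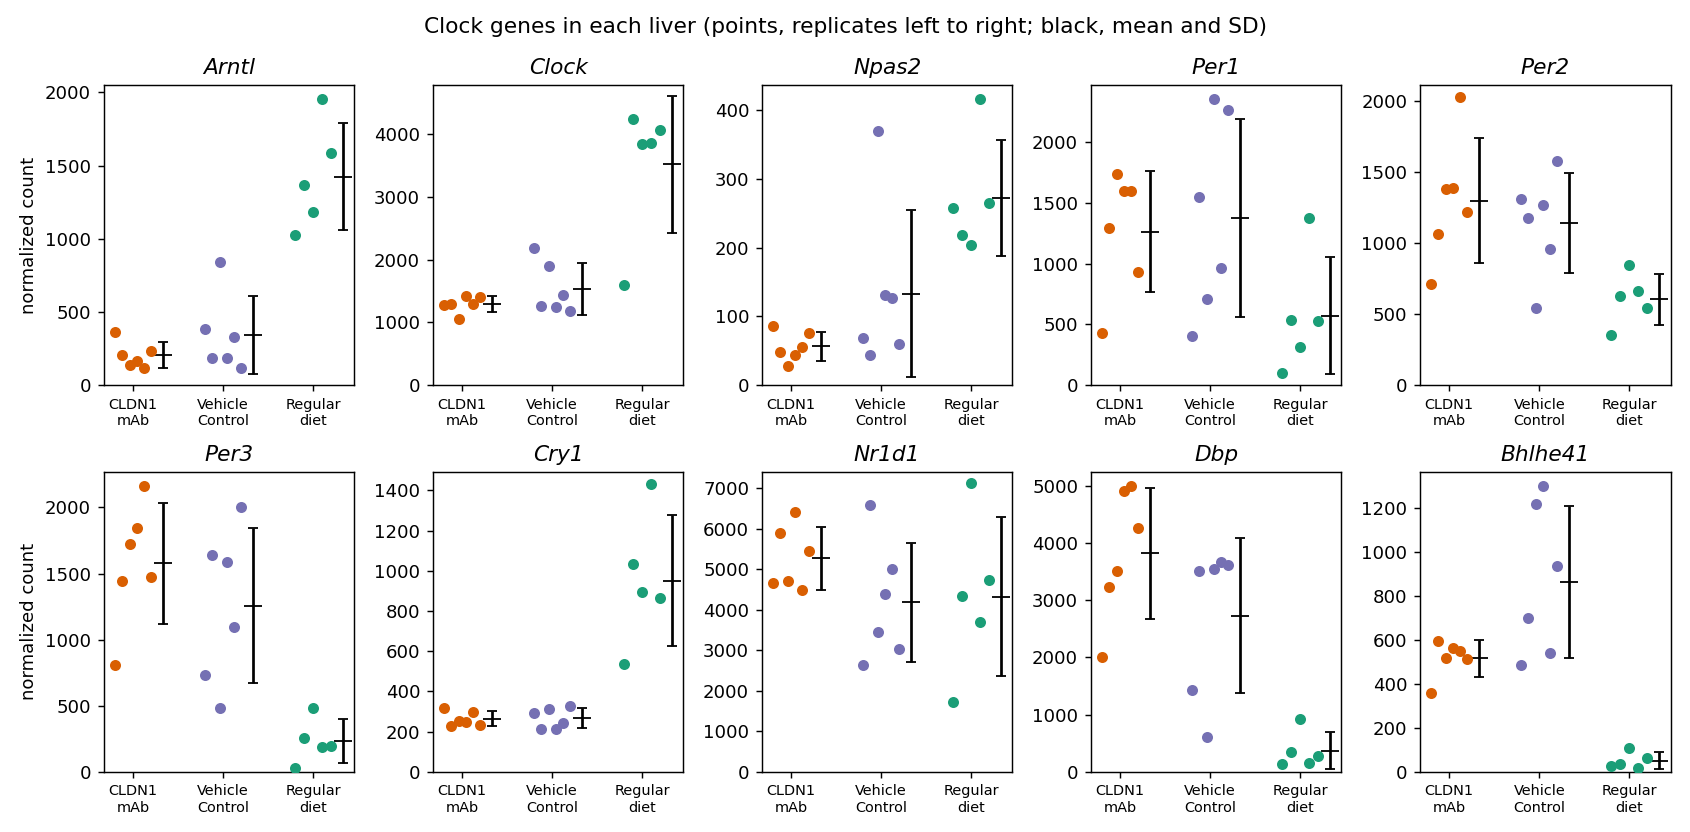
Normalized count (vertical axis, linear, from 0) of each of the 10 clock genes in every liver, with CLDN1 mAb, Vehicle Control and Regular diet from left to right; each point is 1 mouse and the black marks are the group mean and SD. For Arntl, Cry1 and Bhlhe41 no point of either model group lies within the range of the Regular diet points, whereas for Nr1d1 the 3 groups overlap.

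Arntl, the obligate activator of the loop (chromosome 7, 113207465 to 113314126, GRCm38), was measured at 117 to 364 normalized counts in CLDN1 mAb livers (median 186), at 118 to 842 in Vehicle Control livers (median 259.5), and at 1024, 1370.1, 1181, 1957 and 1586 in the 5 Regular diet livers. Every CLDN1 mAb and Vehicle Control value was below every Regular diet value. The log2 fold change against Regular diet was -2.86 ± 0.40 in CLDN1 mAb (limma adjusted p = 1.78e-05, a 7.24-fold fall) and -2.33 ± 0.40 in Vehicle Control (limma adjusted p = 1.04e-04, a 5.02-fold fall). The highest model value, 842, was that of Vehicle Control replicate 3, and the next highest in that group was 382. Without that library the log2 fold change in Vehicle Control was -2.65 ± 0.33.

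Clock, which encodes the usual partner of ARNTL (chromosome 5, 76209868 to 76304792), lay between 1054 and 1419 in CLDN1 mAb livers (median 1291) and between 1172 and 2177 in Vehicle Control livers (median 1350.4). In Regular diet livers it was at 1594 in replicate 1 and between 3840.2 and 4232 in the other 4. CLDN1 mAb livers were all below Regular diet livers, whereas Vehicle Control livers overlapped them through Regular diet replicate 1. Clock fell by 1.37 ± 0.23 on the log2 scale in CLDN1 mAb (limma adjusted p = 1.13e-04) and by 1.16 ± 0.23 in Vehicle Control (limma adjusted p = 3.97e-04). Leaving out Regular diet replicate 1 gave log2 fold changes of -1.64 in CLDN1 mAb and -1.42 in Vehicle Control. With every library scaled to the same total, the fall in Vehicle Control no longer passed (-0.54, limma adjusted p = 0.131).

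Npas2, whose protein can take the place of CLOCK (chromosome 1, 39193731 to 39363236), was at 28.4 to 85.6 in CLDN1 mAb livers (median 51.6) and at 43.9 to 369.8 in Vehicle Control livers (median 97.4), against 258, 219, 204, 417 and 266 in Regular diet livers. Only Vehicle Control replicate 3, at 369.8, entered the Regular diet range. The next highest Vehicle Control liver was at 131. Npas2 fell with log2 fold changes of -2.30 ± 0.43 in CLDN1 mAb (limma adjusted p = 3.69e-04) and -1.36 ± 0.43 in Vehicle Control (limma adjusted p = 0.0138). The Vehicle Control value was -1.74 without replicate 3 and, with the same total per library, -0.74 and no longer past the threshold (limma adjusted p = 0.2).

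The Per and Cry repressors differed in direction. Cry1, a strong repressor of the activator pair (chromosome 10, 85131700 to 85185064), stood at 229.9 to 319.6 in CLDN1 mAb livers (median 250.4) and 212 to 325 in Vehicle Control livers (median 268), against 536, 1033, 894, 1433 and 863 in Regular diet livers. None of the 12 model livers reached the lowest Regular diet liver. Cry1 fell by 1.79 ± 0.21 in CLDN1 mAb (limma adjusted p = 2.39e-06) and by 1.78 ± 0.21 in Vehicle Control (limma adjusted p = 1.69e-06) on the log2 scale, a 3.46-fold and a 3.44-fold fall.

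Per3, a period gene whose transcript cycles strongly in mouse liver (chromosome 4, 151003652 to 151044665), moved the other way. It ran from 810.4 to 2164 in CLDN1 mAb livers (median 1599) and from 483 to 2001 in Vehicle Control livers (median 1342), and was at 31.9, 259, 486, 184 and 194 in Regular diet livers. All CLDN1 mAb livers were above all Regular diet livers, and Vehicle Control replicate 3, at 483, was the 1 Vehicle Control liver below the highest Regular diet value. The log2 fold change was 3.14 ± 0.52 in CLDN1 mAb (limma adjusted p = 1.07e-04) and 2.71 ± 0.52 in Vehicle Control (limma adjusted p = 3.07e-04). Without Regular diet replicate 1, the lowest liver at 31.9, they were 2.54 and 2.11.

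Per2, a repressor that pairs with CRY1 (chromosome 1, 91415982 to 91459324), was at 709.5 to 2029 in CLDN1 mAb livers (median 1299.8) and 545 to 1577 in Vehicle Control livers (median 1222), against 354, 625, 842, 662 and 539 in Regular diet livers. The ranges overlapped in both comparisons. Per2 rose by 1.09 ± 0.28 in CLDN1 mAb (limma adjusted p = 0.00542) and by 0.90 ± 0.28 in Vehicle Control (limma adjusted p = 0.0139) on the log2 scale. Leaving out Regular diet replicate 1 gave 0.91 in CLDN1 mAb and 0.72 in Vehicle Control. Leaving out Vehicle Control replicate 3 instead gave 1.09 in Vehicle Control.

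Per1, the period gene that glucocorticoids also induce (chromosome 11, 69095217 to 69109960), was the least certain member. It ranged from 428 to 1736 in CLDN1 mAb livers (median 1445), from 406 to 2357 in Vehicle Control livers (median 1255) and from 101 to 1372 in Regular diet livers (median 529). Regular diet replicates 2, 4 and 5, at 539, 1372 and 529, lay inside the range of both model groups. The log2 fold change was 1.46 ± 0.57 in both comparisons, which passed in Vehicle Control (limma adjusted p = 0.0414) and missed the threshold in CLDN1 mAb (limma adjusted p = 0.0516). Without Regular diet replicate 1, at 101, neither passed (0.95 in CLDN1 mAb, limma adjusted p = 0.136, and 0.96 in Vehicle Control, limma adjusted p = 0.124). The Vehicle Control call also ended with quantile normalization (limma adjusted p = 0.0562), and the CLDN1 mAb value passed with the same total per library (limma adjusted p = 0.0247).

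Nr1d1, the repressor of Arntl (chromosome 11, 98767932 to 98775333), was at 4476 to 6401 in CLDN1 mAb livers (median 5077), 2630.2 to 6587 in Vehicle Control livers (median 3916) and 1710, 4348, 7131, 3691 and 4734 in Regular diet livers. All 3 groups overlapped, and the Regular diet livers spanned the widest range. Its log2 fold change against Regular diet was 0.41 ± 0.29 in CLDN1 mAb (95% interval -0.20 to 1.02, limma adjusted p = 0.282) and 0.02 ± 0.29 in Vehicle Control (95% interval -0.59 to 0.63, limma adjusted p = 0.959). Without Regular diet replicate 1 the Vehicle Control value was -0.28 and the CLDN1 mAb value 0.11. Exons of Nr1d1 share 8.55% of their bases with Thra on the opposite strand, and strand was not stated for the counting, so reads of the pair cannot be told apart there.

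Dbp, a D-box activator that carries the rhythm to liver metabolism (chromosome 7, 45705088 to 45710203), had 2012 to 5000.4 normalized counts in CLDN1 mAb livers (median 3886) and 612 to 3664 in Vehicle Control livers (median 3532). In the 5 Regular diet livers it had 128, 353, 930.6, 156 and 279.6. CLDN1 mAb livers were all above Regular diet livers, and of the Vehicle Control livers replicate 3, at 612, alone lay under the highest Regular diet liver, replicate 3 of that group at 930.6. Dbp rose by 3.68 ± 0.51 in CLDN1 mAb (limma adjusted p = 1.52e-05, 12.8-fold) and by 3.01 ± 0.51 in Vehicle Control (limma adjusted p = 8.70e-05, 8.07-fold) on the log2 scale. Dbp rose by 3.39 in Vehicle Control without replicate 3 of that group. It rose by 3.40 in CLDN1 mAb and 2.73 in Vehicle Control without Regular diet replicate 1. Its exons share 18.0% of their bases with Sphk2 on the opposite strand, so part of its reads cannot be assigned with certainty.

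Bhlhe41 (DEC2), a repressor that competes for E-boxes (chromosome 6, 145858243 to 145865558), had the largest rise of the 10 members in Vehicle Control livers. It was at 358 to 597 in CLDN1 mAb livers (median 533) and at 484 to 1301 in Vehicle Control livers (median 816), against 24.6, 36.7, 110.3, 19.3 and 62.6 in Regular diet livers. Each model liver exceeded each Regular diet liver. The log2 fold change was 3.59 ± 0.37 in CLDN1 mAb (limma adjusted p = 6.45e-07, 12-fold) and 4.24 ± 0.37 in Vehicle Control (limma adjusted p = 6.51e-08, 19.0-fold). An unnamed gene model (Gm43909) on the opposite strand overlaps 19.0% of its exon bases.

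**Figure D2:**
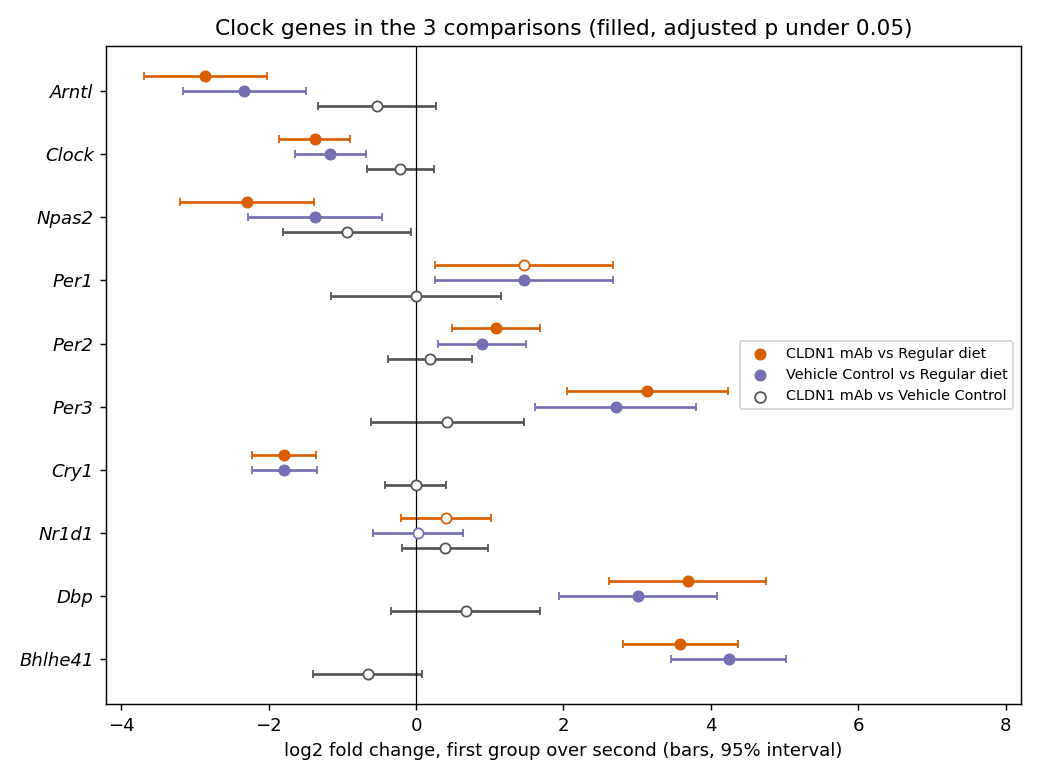
Log2 fold change of each member with its 95% interval in CLDN1 mAb against Regular diet, Vehicle Control against Regular diet and CLDN1 mAb against Vehicle Control, first group over second; filled points passed an adjusted p of 0.05 in the limma fit. Arntl, Clock, Npas2 and Cry1 lie left of 0 and Per2, Per3, Dbp and Bhlhe41 right of 0 in both comparisons with Regular diet, and no member has a filled point in CLDN1 mAb against Vehicle Control.

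Compared per kilobase of exon, so that genes can be ranked against each other, the order of mean levels differed between the groups. In CLDN1 mAb livers Nr1d1 (1710 ± 253 normalized counts per kb, mean ± SD, n = 6) and Dbp (1276 ± 380.3) led, followed by Per1 (224 ± 88.8), Per2 (222 ± 74.7), Per3 (164 ± 47.7), Clock (93.9 ± 9.59), Cry1 (78.9 ± 11), Bhlhe41 (76.8 ± 12.5), Arntl (27.2 ± 11.8) and Npas2 (11.7 ± 4.39). In Vehicle Control livers Nr1d1 (1359 ± 477) and Dbp (913 ± 451) led again and Arntl (45.3 ± 35.2) and Npas2 (27.8 ± 25.3) came last. In Regular diet livers Nr1d1 (1405 ± 635, n = 5) was followed by Cry1 (285 ± 97.3), Clock (256 ± 79.2), Arntl (189 ± 48.5), Dbp (123 ± 109), Per2 (103 ± 30.5), Per1 (101 ± 85.7), Npas2 (56.9 ± 17.7), Per3 (24 ± 17.2) and Bhlhe41 (7.54 ± 5.55). Neighbours such as Per1 and Per2, or Cry1 and Bhlhe41 in CLDN1 mAb livers, and Cry1 and Clock in Regular diet livers, differed by less than 1 SD.

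The ratio of Dbp to Arntl within a library, taken of the values plus 1, put the opposed sides of the loop on 1 axis. Its log2 value was 2.46 to 5.40 in CLDN1 mAb livers (median 4.41), -0.46 to 4.92 in Vehicle Control livers (median 3.84) and -3.65 to -0.34 in Regular diet livers (median -2.50). Vehicle Control replicate 3, at -0.46, fell inside the Regular diet range, and the other 5 Vehicle Control livers were between 1.91 and 4.92. The log2 ratio of Per3 to Npas2 gave the same placing of that mouse, at 0.38 against 3.10 to 5.19 in the other 5 Vehicle Control livers, 3.23 to 5.87 in CLDN1 mAb livers and -2.97 to 1.25 in Regular diet livers. Its other members did not all follow, since its Cry1 (312) and Bhlhe41 (1219) lay with those of the model mice.

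**Figure D3:**
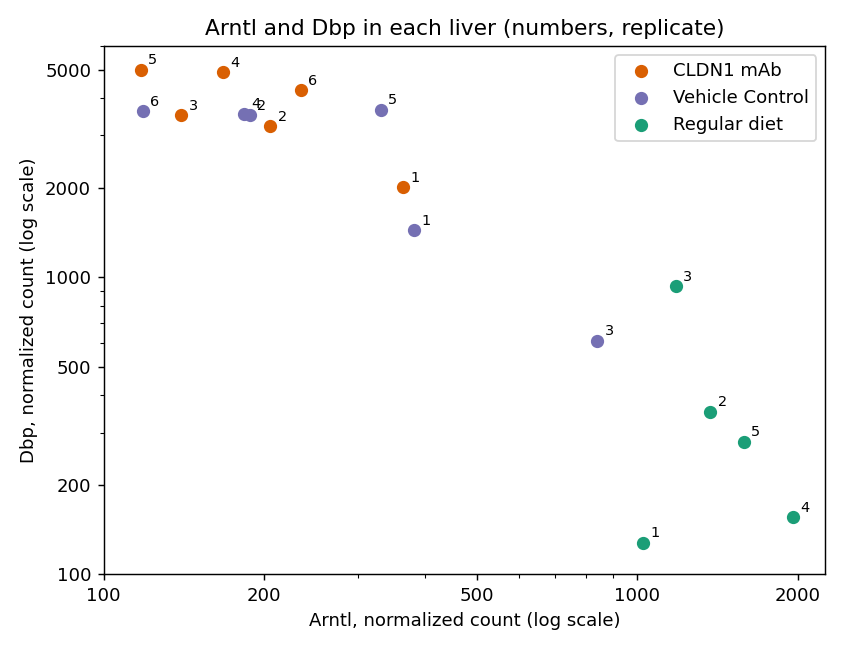
Arntl (horizontal) against Dbp (vertical) in each of the 17 livers, both as normalized counts on log axes; colours give the group and numbers the replicate. CLDN1 mAb and 5 of the 6 Vehicle Control livers lie at the upper left, Regular diet livers at the lower right, and Vehicle Control replicate 3 (Arntl 842, Dbp 612) beside the Regular diet livers.

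Mice of the same group also differed along this axis. With each library taken as its log2 deviation from its group mean (n = 17), Dbp and Per3 went together (Pearson r = 0.84, adjusted permutation p = 8.0e-05; Spearman rho = 0.78, adjusted permutation p = 0.00252), and r was 0.79 without the 2 libraries farthest from the median of Dbp. Arntl and Npas2 had r = 0.75 (adjusted permutation p = 0.0108) and rho = 0.59 (0.0442), and Arntl and Dbp r = -0.66 (adjusted permutation p = 0.0103) and rho = -0.61 (0.0268). Leaving out the 2 libraries farthest from the median of Arntl, both of them Vehicle Control mice, gave r = 0.51 and r = -0.46. Arntl and Nr1d1 showed no such relation (r = -0.03, adjusted permutation p = 0.916; rho = -0.03, 0.920). These 4 pairs were the family adjusted for, with 100000 permutations within groups. Without Vehicle Control replicate 3, Arntl with Dbp (r = -0.44, adjusted permutation p = 0.102) and Arntl with Npas2 (r = 0.53, adjusted permutation p = 0.102) no longer passed, whereas Dbp with Per3 kept r = 0.84 (adjusted permutation p = 0.00232). With the same total per library, Arntl with Dbp did not pass either (r = -0.44, adjusted permutation p = 0.143). Among the 12 model mice alone, Arntl with Dbp had r = -0.86 (adjusted permutation p = 0.00328), and -0.72 without Vehicle Control replicates 3 and 6. Arntl with Npas2 had r = 0.75 there (adjusted permutation p = 0.0219), and 0.46 without that pair.

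Among 12721 named genes with a mean of at least 50, the 5 whose deviations were most like those of Dbp over the 17 libraries were Tef (r = 0.87), a D-box activator of the same family as Dbp, Per3 (0.84), Ciart (0.82), a repressor of the activator pair, Mtrr (0.78) and Bnip3 (0.77). The 5 most unlike were Rabl2 (-0.79), Lst1 (-0.77), Wfdc17 (-0.76), Lgalsl (-0.73) and Atp4a (-0.72). For Arntl the most unlike of all was Usp2 (-0.94), a deubiquitinase gene with a daily rhythm in liver, followed by Pex11a (-0.84), Cyp2a5 (-0.82), Aifm2 (-0.79) and Marveld1 (-0.76). The most like were Top3b (0.85), St5 (0.84), Bach2os (0.81), Dhrs9 (0.80) and Lgalsl (0.78), with Npas2 at rank 7 and Nfil3, a repressor at D-boxes, at rank 12 (0.69). Without Vehicle Control replicate 3, a check chosen after seeing the data, Usp2 stayed the most unlike Arntl (-0.91) and Dhrs9 was the most like it (0.84), while Top3b was at rank 13 and Npas2 at rank 308. For Dbp, Per3 (0.84) and Tef (0.82) were then the 2 most like, and the member Bhlhe41 was at rank 3 (0.81). Ciart was at rank 29, Mtrr at rank 47 and Bnip3 at rank 208. None of the 5 named as most unlike Dbp kept its place. Counted from the lowest, Atp4a was at rank 12, Lst1 at 16, Rabl2 at 32, Wfdc17 at 69 and Lgalsl at 288. These coefficients describe the libraries, which share their scaling, and carry no test.

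CLDN1 mAb livers did not differ from Vehicle Control livers in any member past the threshold. None of the 18624 genes passed in the limma fit (0.0% called), although 1391 (7.47%) had an unadjusted p under 0.05, 1 of them a member, Npas2. With no filter on low values 2 genes passed, and with limma's array weights, which give less weight to libraries far from their group, 5310 did, including the member Npas2 (-1.43, limma adjusted p = 0.0159). In the unweighted fit Npas2 had a log2 fold change of -0.93 (95% interval -1.80 to -0.07, limma adjusted p = 0.659), and -0.56 without Vehicle Control replicate 3. Bhlhe41 was at -0.66 (-1.40 to 0.09), Arntl at -0.53 (-1.33 to 0.27), Dbp at 0.67 (-0.34 to 1.69) and Per3 at 0.43 (-0.62 to 1.47), none past the threshold. Without Vehicle Control replicate 3, Arntl was at -0.21, Dbp at 0.29 and Per3 at 0.18. The interval was narrowest for Cry1, at -0.01 (-0.42 to 0.41), and widest for Per1, at 0.00 (-1.15 to 1.15). Clock (-0.21, -0.67 to 0.25), Per2 (0.19, -0.38 to 0.76) and Nr1d1 (0.39, -0.19 to 0.97) completed the set. No member had ranges that did not overlap between these groups, which held for 0.322% of all genes.

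The labels carry a library code whose number runs from 25 to 42, and Regular diet libraries hold 31 to 35 with no other group among them, so a difference between runs of codes and the difference between Regular diet and the other groups cannot be told apart. The labels do not say what the codes stand for. Vehicle Control replicate 3, whose ratio of Dbp to Arntl lay in the Regular diet range, has code 30, next to the Regular diet codes. The livers with codes 29 and 36, CLDN1 mAb replicates 3 and 4, had log2 ratios of 4.64 and 4.86, above that range. These are single libraries, and a relation of the ratio to the codes was not tested. Of the 12 model mice, 3 of each group have codes under 31 and 3 of each over 35, which allows a comparison within both groups. Dbp was at 4264 to 5000.4 for codes over 35 and 2012 to 3508 for codes under 31 in CLDN1 mAb livers, and at 3549.9 to 3664 against 612 to 3515 in Vehicle Control livers. It was the 1 member whose ranges did not overlap in the same direction in both groups, as was the case for 5.38% of all genes. With group as a term, the log2 difference of codes over 35 minus under 31 was 1.02 ± 0.33 for Dbp (limma adjusted p = 0.0957), and 0.71 ± 0.21 without Vehicle Control replicate 3 (limma adjusted p = 0.0391). No member passed with all 12 libraries, against 720 genes (3.87%). The next smallest p was that of Per3, at 0.69 ± 0.29 (limma adjusted p = 0.157), while Per1 (0.81) and Arntl (-0.71) had larger differences with a larger p. The log2 fold change of Dbp in CLDN1 mAb against Vehicle Control was 0.38 among codes over 35 and 0.96 among codes under 31, neither past the threshold, and 0.33 among codes under 31 without Vehicle Control replicate 3 (3 livers against 2, with no test).

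**Figure D4:**
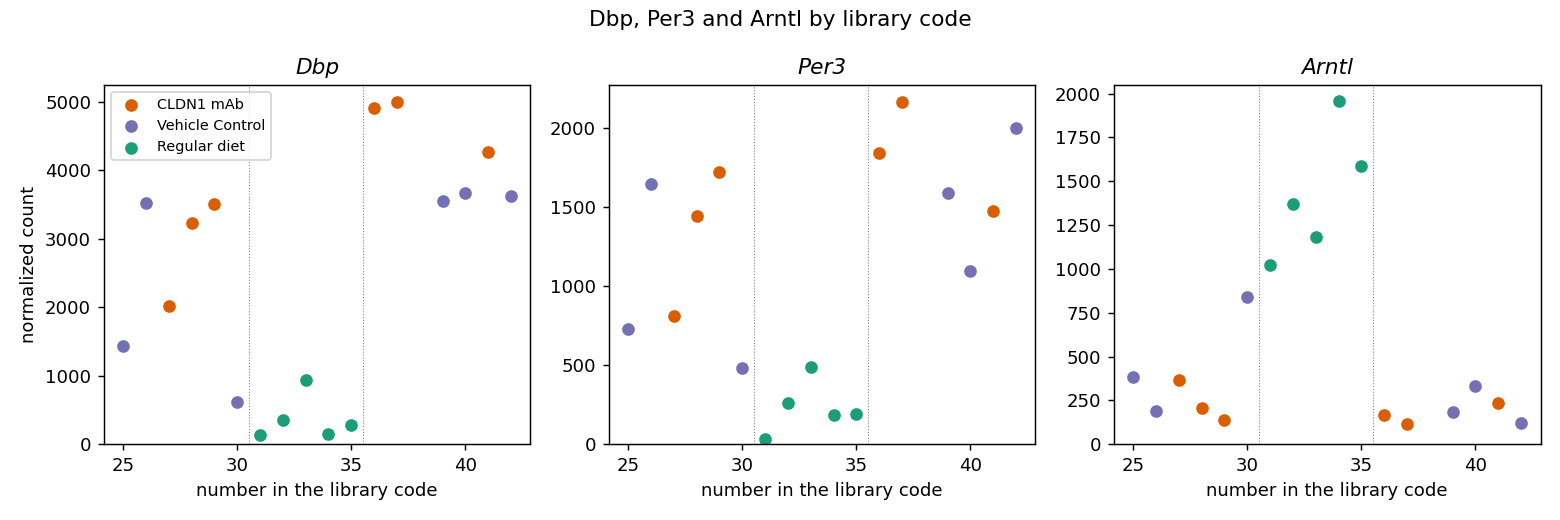
Normalized counts (vertical, linear) of Dbp, Per3 and Arntl against the number in each library's code (horizontal); colours give the group and dotted lines bound the Regular diet codes, 31 to 35. The range of Dbp for codes over 35 lies above that for codes under 31 within both model groups, while Arntl and Per3 overlap. In Vehicle Control livers the gap is narrow (3549.9 against 3515). Such a separation was seen for 5.38% of all genes, and the Dbp difference did not pass with all 12 libraries (limma adjusted p = 0.0957).

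Other genes of the clock were called about as often as all genes were. Of 16 listed, 7 changed in CLDN1 mAb against Regular diet, 5 higher and 2 lower, and 8 in Vehicle Control against Regular diet, 4 higher and 4 lower, where 38.9% and 50.5% of all genes changed. Ciart had 132 to 467 normalized counts in CLDN1 mAb livers and 49.7 to 474 in Vehicle Control livers, against 4.91 to 54.3 in Regular diet livers. It rose by 3.99 ± 0.58 in CLDN1 mAb (limma adjusted p = 2.60e-05) and 3.24 ± 0.58 in Vehicle Control (limma adjusted p = 1.54e-04) on the log2 scale. Nfil3 stood at 270.1 to 812 in CLDN1 mAb livers, 233 to 712 in Vehicle Control livers and 1571 to 3566 in Regular diet livers, with no overlap, and fell by 2.26 ± 0.32 in CLDN1 mAb (limma adjusted p = 2.40e-05) and fell by 2.47 ± 0.32 in Vehicle Control (limma adjusted p = 6.05e-06).

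Among the other genes higher against Regular diet, Csnk1e, a kinase that marks PER proteins for degradation, rose by 1.27 in CLDN1 mAb livers and by 1.73 in Vehicle Control livers. Arntl2, a relative of Arntl, rose by 0.86 in CLDN1 mAb livers and by 1.34 in Vehicle Control livers, and its CLDN1 mAb call ended with quantile normalization (0.19). Timeless rose by 0.33 in CLDN1 mAb livers and by 0.32 in Vehicle Control livers, but with quantile normalization it was at -0.11 in CLDN1 mAb and -0.22 in Vehicle Control. Tef rose by 1.24 in CLDN1 mAb livers (limma adjusted p = 0.00534) and was at 0.79 in Vehicle Control livers (limma adjusted p = 0.0518), where it passed with the same total per library (limma adjusted p = 0.00462) and with quantile normalization (limma adjusted p = 0.00957).

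Rora, an activator at the RRE, fell by 0.65 in CLDN1 mAb livers (limma adjusted p = 0.0374) and by 0.72 in Vehicle Control livers (limma adjusted p = 0.017). Both Rora calls ended with the same total per library and with quantile normalization. Hlf, of the same D-box family as Dbp and Tef, was at -0.41 in CLDN1 mAb livers (limma adjusted p = 0.251) and fell by 0.85 in Vehicle Control livers. Btrc, part of the ligase that degrades PER, was at -0.10 in CLDN1 mAb livers (limma adjusted p = 0.542) and fell by 0.41 in Vehicle Control livers. The same total per library also ended the Hlf and Btrc calls in Vehicle Control and turned Btrc to 0.21 there and to 0.34 in CLDN1 mAb livers (limma adjusted p = 0.0369). No other clock gene passed in CLDN1 mAb against Vehicle Control. The smallest p there were those of Btrc (0.31), whose ranges did not overlap, and Cry2, the other cryptochrome repressor (0.46), both with a limma adjusted p of 0.659.

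**Figure D5:**
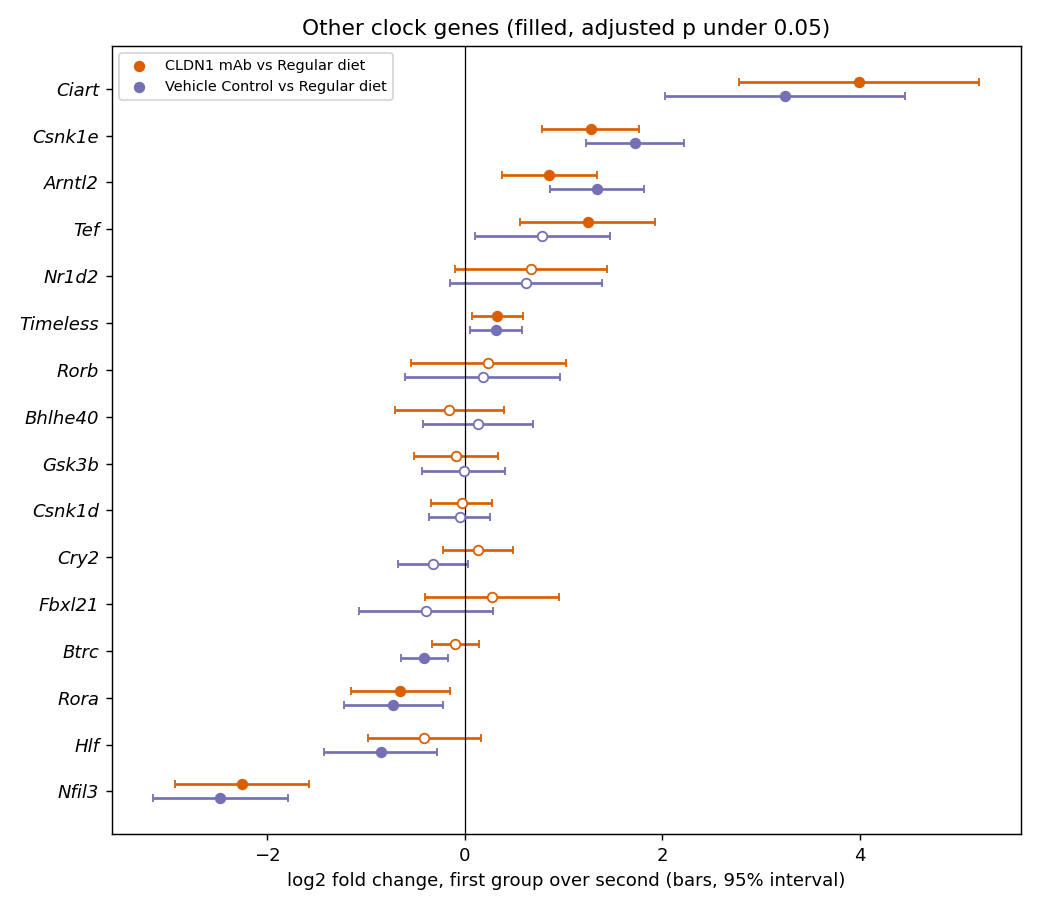
Log2 fold change with its 95% interval for 16 further clock genes in CLDN1 mAb and Vehicle Control livers, each against Regular diet; filled points passed an adjusted p of 0.05 in the limma fit. Ciart lies farthest to the right (3.99 and 3.24) and Nfil3 farthest to the left (-2.26 and -2.47) in both comparisons.

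The 15 listed genes that the clock drives in liver were split in direction. Against Regular diet, 4 rose and 3 fell in CLDN1 mAb livers, and 5 rose and 4 fell in Vehicle Control livers, beside 38.9% of all genes called in the CLDN1 mAb comparison and 50.5% in the Vehicle Control comparison. Wee1, a cell cycle kinase gene driven through E-boxes, rose by 2.85 in CLDN1 mAb livers and by 2.38 in Vehicle Control livers. Usp2 rose by 2.75 in CLDN1 mAb livers and by 1.87 in Vehicle Control livers, and Nampt, an enzyme of NAD synthesis, by 0.95 in CLDN1 mAb livers and 0.90 in Vehicle Control livers. Cys1 rose by 1.15 in CLDN1 mAb livers and by 1.35 in Vehicle Control livers.

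Among the lower ones, Ces2a, a carboxylesterase, fell by 3.62 in CLDN1 mAb livers and by 4.35 in Vehicle Control livers. Nr0b2 (SHP), a repressor of bile acid synthesis, fell by 1.93 in CLDN1 mAb livers and by 2.67 in Vehicle Control livers, and Slc45a3 by 1.76 in CLDN1 mAb livers and 1.54 in Vehicle Control livers. Upp2, a uridine phosphorylase, was at -0.02 in CLDN1 mAb livers (limma adjusted p = 0.981) and fell by 1.67 in Vehicle Control livers, a call that ended with the same total per library (limma adjusted p = 0.121) and with quantile normalization (limma adjusted p = 0.0648). None of the 15 passed in CLDN1 mAb against Vehicle Control, where Ces2a (0.73) and Upp2 (1.65) had the smallest p, both with a limma adjusted p of 0.659.

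Glucocorticoids and body temperature are among the cues that can set the phase of the liver clock, and genes that answer to them are given for that reason. Of 12 glucocorticoid-induced genes, which include Per1, 4 rose and 3 fell in CLDN1 mAb against Regular diet, and 5 rose and 3 fell in Vehicle Control against Regular diet, where 38.9% (CLDN1 mAb) and 50.5% (Vehicle Control) of all genes were called. Sult1e1, estrogen sulfotransferase, rose by 7.81 in CLDN1 mAb livers and by 7.77 in Vehicle Control livers. It was at only 1.53 to 9.63 in Regular diet livers, against 211 to 2011 in CLDN1 mAb and 285 to 4363 in Vehicle Control livers. Sult1e1 thus reached the filter value of 10 through the model livers alone, and its folds are taken against values near the floor. Mt2, a metallothionein, rose by 4.89 in CLDN1 mAb livers and by 5.09 in Vehicle Control livers. Cdkn1a (p21), which halts the cell cycle, rose by 1.02 in CLDN1 mAb livers and by 1.69 in Vehicle Control livers. Fkbp5, a direct target of the glucocorticoid receptor, rose by 0.85 in CLDN1 mAb livers and by 0.90 in Vehicle Control livers.

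Tat, tyrosine aminotransferase, fell by 2.10 in CLDN1 mAb livers and by 2.92 in Vehicle Control livers, and Dusp1, a phosphatase, by 2.89 in CLDN1 mAb livers and 1.68 in Vehicle Control livers. Pck1, an enzyme of glucose synthesis, was at -1.09 in CLDN1 mAb livers (limma adjusted p = 0.12) and fell by 1.94 in Vehicle Control livers. The Vehicle Control call of Pck1 ended with the same total per library (limma adjusted p = 0.0533) and with quantile normalization (limma adjusted p = 0.138). In CLDN1 mAb against Vehicle Control none of the 12 passed, the smallest p being those of Dusp1 (-1.21) and Cdkn1a (-0.67), both with a limma adjusted p of 0.659.

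Of 9 temperature-responsive genes, 2 rose and 3 fell in each comparison with Regular diet, against 38.9% of all genes called for CLDN1 mAb and 50.5% for Vehicle Control. Rbm3, a cold-inducible RNA-binding protein, rose by 1.28 in CLDN1 mAb livers and by 1.58 in Vehicle Control livers. Hspa1a, a heat shock protein whose reads can be split with its near-identical copy Hspa1b, rose by 1.46 in CLDN1 mAb livers and by 1.73 in Vehicle Control livers. Hsph1, also a heat shock protein, fell by 1.38 in CLDN1 mAb livers and by 1.13 in Vehicle Control livers. Hsp90aa1, a chaperone, fell by 0.68 in CLDN1 mAb livers and by 0.54 in Vehicle Control livers, and Dnajb1, a cochaperone, by 0.53 in CLDN1 mAb livers and 0.44 in Vehicle Control livers.

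Scaling changed several of these calls. When every library was set to the same total, Dnajb1 (0.18) and Hsp90aa1 (0.08) were above 0 in Vehicle Control livers and neither passed in CLDN1 mAb livers (-0.09 for Dnajb1 and -0.24 for Hsp90aa1), and Hsph1 did not pass in Vehicle Control livers (limma adjusted p = 0.0701). With quantile normalization Hspa1a did not pass in CLDN1 mAb livers (limma adjusted p = 0.0609), nor Hsp90aa1 in either group. None passed in CLDN1 mAb against Vehicle Control, where Rbm3 (-0.31, limma adjusted p = 0.677) and Hsph1 (-0.25, limma adjusted p = 0.712) had the smallest p.

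Transcripts of markers of several cell types also differed between the same groups. Against Regular diet, 5 of 9 hepatocyte markers tested fell and 1, Serpina1e, rose in CLDN1 mAb livers, and 7 fell in Vehicle Control livers. Of all genes, 24.8% rose and 14.1% fell in CLDN1 mAb livers, and 29.8% rose and 20.7% fell in Vehicle Control livers. Their summed level was 722663 to 1350209 normalized counts in CLDN1 mAb livers, 311407 to 1225133 in Vehicle Control livers and 1605551 to 3415954 in Regular diet livers. Alb was listed at 0 in every library, and Serpina1e, one of a family of near-identical genes, was listed at 0 in 3 Regular diet livers and reached 322098 in another. Without Serpina1e the sums were 699896 to 1303140 in CLDN1 mAb livers, 310502 to 1176412 in Vehicle Control livers and 1538437 to 3415954 in Regular diet livers. All 5 cholangiocyte markers rose in both comparisons, and summed to 39546 to 77360.2 in CLDN1 mAb livers, 44553 to 99369.5 in Vehicle Control livers and 2507 to 4046 in Regular diet livers. Most of that sum was Spp1, which macrophages also express, and the other 4 summed to 2225 to 6988 in CLDN1 mAb livers, 2579 to 6927 in Vehicle Control livers and 422 to 1007 in Regular diet livers.

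Of 8 macrophage markers, 5 rose and 1, the Kupffer cell gene Clec4f, fell in both comparisons, and the 8 summed to 94129 to 168728 in CLDN1 mAb livers, 58564 to 239272 in Vehicle Control livers and 10333 to 33715 in Regular diet livers. Of 8 markers of fibroblasts and stellate cells, 7 rose in CLDN1 mAb and 6 in Vehicle Control livers, and the 8 summed to 30549 to 100165 in CLDN1 mAb livers, 34748 to 138630 in Vehicle Control livers and 9919.9 to 15718 in Regular diet livers. Of 5 T cell markers 4 rose in both comparisons. Of 5 endothelial markers 2 fell in CLDN1 mAb livers (Kdr and Cdh5) and 1 in Vehicle Control livers (Kdr). Of 4 B cell markers 1 rose (Cd79b), in Vehicle Control livers. The endothelial and B cell counts in Vehicle Control livers were near the shares of all genes there, 20.7% lower and 29.8% higher. In bulk liver, fewer cells of a type and less RNA per cell cannot be told apart, and the part of cell make-up in the clock gene results was not tested.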

How the data were processed

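Per the labels, total RNA of 17 mouse livers was sequenced by standard Illumina protocols. The deposited table holds one signal value per gene and library, counts that the authors normalized with cuffnorm, and the submitters' processing notes name Cufflinks 2.2.1 and build mm10; aligner, annotation release, strand and scaling are not given in the sources used here. Of the low values 97.7 to 98.2% lay within 0.05 steps of a whole multiple of the step taken as 1 fragment, which gave the depths. A count model on reads recovered from these steps was tried after seeing the data and withdrawn, since the smallest values are fractional; in it Npas2 and Per1 no longer passed in Vehicle Control against Regular diet. Symbols (52398 of 52545 genes), positions and lengths came from GENCODE on GRCm38, the same build.

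Genes at 10 or more in at least 5 libraries were tested on log2(value + 1) with limma-trend (limma 3.58.1, R 4.3.3) over all 17 libraries, group as the only term, two-sided, Benjamini-Hochberg over all 18624 genes, threshold 0.05. The scale understates changes of low genes. Members and gene lists were chosen with earlier results of these data known. Named list genes were up to 4 per direction with the smallest p in Vehicle Control against Regular diet, up to 2 where none passed, and the 5 genes most like and most unlike Arntl and Dbp; Clec4f, Serpina1e, Kdr, Cdh5 and Cd79b were named after their values were seen. A few listed genes are not reported here and were taken out of the counts. Alternatives covered scaling, pseudocount, filter, weights, replicate block and each library left out.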

Additional observations from a re-analysis of the deposited data

Results flagged for a closer look

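The libraries below had the highest or lowest value of their group with a gap to the nearest other that was large for the range of the group (Dixon's test at the 95% level). Among 78 series of a clock gene in a group, 11 had such a value, 5 of them among the 30 series of members. The level stands for about 1 in 20 in independent series of normally distributed values. These series share libraries and were tested on normalized counts without a logarithm, so the counts cannot be judged against that rate.

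Vehicle Control replicate 3 was high for Arntl (842, nearest 382) and for Npas2 (369.8, nearest 131). Regular diet replicate 1 was low for Clock (1594, nearest 3840.2), and also for Rora (1722), Csnk1d (2599) and Gsk3b (840.2), each with the next library far above it. Regular diet replicate 3 was high for Dbp (930.6, nearest 353). CLDN1 mAb replicate 1 was low for Bhlhe41 (358, nearest 513) and for Csnk1d (2651). Vehicle Control replicate 1 was high for Bhlhe40, the relative of Bhlhe41 (11162.5), and Regular diet replicate 2 low for Timeless (269).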

How the results depend on the processing

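All 8 members called in CLDN1 mAb against Regular diet kept their call and direction under every alternative run, and of the 9 called in Vehicle Control against Regular diet, Arntl, Per2, Per3, Cry1, Dbp and Bhlhe41 did. Clock and Npas2 lost theirs with the same total per library and Per1 with quantile normalization, no filter, only the compared groups, no variance trend, 7 single libraries left out and Regular diet replicate 1 and Vehicle Control replicate 3 both left out (chosen after seeing the data, and called the doubted libraries here). Per1 against Regular diet in CLDN1 mAb passed with the same total (limma adjusted p = 0.0247), array weights and 4 single libraries left out. The cause was not tested.

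Array weights called 11344 genes in CLDN1 mAb against Regular diet, and 5310 genes and 1 member (Npas2) in CLDN1 mAb against Vehicle Control, where no filter called 2 genes.

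Small values changed sign. Nr1d1 in Vehicle Control against Regular diet was at -0.28 with array weights, -0.24 without both doubted libraries, and -0.28 to 0.24 with single libraries left out. In CLDN1 mAb against Vehicle Control, Cry1 was at 0.11 with quantile normalization, 0.045 without both doubted libraries, 0.0068 among library codes over 35 and -0.067 to 0.057 with single libraries left out. Per2 was at -0.0052 without both doubted libraries and -0.0052 to 0.35 with single libraries left out, Per1 at 0.37 among codes under 31 and -0.30 to 0.28 with single libraries left out, and Clock at 0.10 among codes over 35.

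For codes over 35 against under 31, leaving out single libraries gave 292 to 3645 genes (3645 without Vehicle Control replicate 3) and 0 to 1 members, and the same total called 1 member, Dbp (1.22, limma adjusted p = 0.0403). With the same total, Arntl with Dbp had r = -0.44 and no longer passed (adjusted permutation p = 0.143), and Arntl with Nr1d1 had r = 0.16. Without Vehicle Control replicate 3, also chosen after seeing the data, r was -0.44 for Arntl with Dbp, 0.064 for Arntl with Nr1d1 and 0.53 for Arntl with Npas2.

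Replicate numbers are only names in the labels: deviations of same-numbered libraries correlated at -0.34 to 0.66, over 0.1 in 5 of 16 pairs. With a replicate block, 6971 genes (9 members) changed in CLDN1 mAb and 9188 (9 members) in Vehicle Control against Regular diet, and 0 in CLDN1 mAb against Vehicle Control; the block added Per1 in CLDN1 mAb (1.40, limma adjusted p = 0.00421) and changed no other member's call.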
